A study of Mus musculus with 6 samples.

Results

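The 9 genes described here encode stretch-responsive and load-bearing proteins of the muscle sarcomere: the muscle ankyrin repeat proteins Ankrd1, Ankrd2 and Ankrd23, the LIM-domain proteins Csrp3 and Fhl1, the Xin-repeat proteins Xirp1 and Xirp2, and the scaffolds Ttn and Flnc. They were chosen by name, with earlier results of these data known, and matched by gene symbol. All 9 were found among the 19938 genes measured, each on 1 transcript cluster (the set of probes that reads 1 gene). Gene expression was measured in the soleus of male C57BL/6 mice aged 8 weeks on 6 microarrays. There were 2 arrays of control soleus, 2 of soleus after hindlimb suspension, in which the hind limbs are lifted so that their muscles bear no weight, and 2 after hindlimb suspension with electroacupuncture, a current passed through acupuncture needles. No group carried a genetic change. The labels used here give neither the length of suspension nor the settings of the current, and there is no array of electroacupuncture without suspension, so an effect of the treatment in loaded muscle was not analysed here. Since no label ties an array to its own mouse, p-values measure the spread between arrays, which may be technical.

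In striated muscle, titin (Ttn) spans from the Z-disc to the M-band and acts as a molecular spring. The ankyrin repeat proteins bind the N2A segment of that spring, and they also enter the nucleus, which links sarcomere strain to gene regulation. Csrp3 (muscle LIM protein) sits at the Z-disc, Fhl1 binds titin, the Xin proteins bind actin and mark sites of filament damage and repair, and filamin C (Flnc) cross-links actin at the Z-disc and beneath the membrane. The soleus lies deep in the calf, holds mainly slow fibres and bears load in standing.

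Array medians over all genes lay between 4.55 and 4.61 log2 units, and with 2 arrays a group precision is limited. All 13 skeletal muscle markers, among them Acta1, Ckm and Myh7, had a mean above 3.50, the 95th percentile of 1027 olfactory receptor genes, taken here as a measure of background. Their summed linear signal was 53800 to 64800 in control, 51900 to 52800 in suspension and 49800 to 54300 in the electroacupuncture group. Of 8 cardiomyocyte markers 5 passed that level, with Myl7, Ryr2 and Tbx5 below it and sums of 205 to 259 over all arrays. Control array 2 gave the highest muscle sum, 64800, while control array 1 at 53800 lay within the range of the electroacupuncture group.

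The comparison of suspension with control addressed what loss of load does to the muscle. In suspended soleus 8 of the 9 genes had a lower mean than in control, beside 48.9% of all genes. Ankrd2 and Flnc fell past the threshold of the test. The members' median log2 difference was -0.92, against 0.01 over all genes. The differences of Ankrd1, Csrp3, Ankrd23 and Xirp1 lay between -0.92 and -1.71 without passing, those of Fhl1 and Xirp2 were small, and titin alone had a higher mean. The test was limma on all 19938 genes with Benjamini-Hochberg adjustment at 0.05. By it 2 of 9 members passed and both were lower, beside 1.05% of all genes that passed, 0.512% lower and 0.537% higher. All genes include many of low signal. With only the 9969 genes at or above the median signal tested, all 9 members among them, 260 passed and 1958 had an unadjusted p under 0.05 in limma. The arrays of the groups did not overlap on 8 of 9 members, beside 39.8% of all genes. On 7 of these both suspension arrays lay below both control arrays, beside 18.5% of all genes. An unadjusted p under 0.05 in limma was found for 7 of the 9 members, beside 12.7% of all genes. These are not the same 7: Ttn, which was higher, had such a p, and Fhl1 had not. In whole muscle, fewer cells of a type and less RNA per cell cannot be told apart. Of 11 marker lists, 4 had sums that did not overlap between these groups, beside 39.8% of single genes. The 12 fibroblast and tendon markers, all above background, summed to 6120 to 6430 in control and 4140 to 5060 in suspension. The 6 satellite cell markers, all above background, were at 206 to 228 and 283 to 303. The others were the skeletal muscle and cardiomyocyte lists, the latter at 223 to 242 and 205 to 213. Their part in the results was not tested.

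Among the ankyrin repeat genes, Ankrd2, the form most typical of slow fibres, read 11.06 and 11.49 log2 units on the control arrays and 9.76 and 9.74 on the suspension arrays. The suspension arrays agreed closely and both lay more than 1 log2 unit below either control array. It fell by 1.53 ± 0.16 log2 (SE, 95% interval -1.89 to -1.16), or 2.88-fold, with an adjusted p of 0.00641 from limma. The gene ranked 19 of 19938 by p. Without suspension array 1 and without suspension array 2 the differences were -1.54 and -1.52, and neither passed. Over all leave-outs the difference ran from -1.74, without control array 1, to -1.31. With every cluster tested by itself the adjusted p from limma was 0.116 at the same difference as in the main fit.

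Ankrd1, known as cardiac ankyrin repeat protein and induced in skeletal muscle by stretch and injury, was a low signal here. It read 5.41 and 5.68 in control and 4.03 and 3.95 in suspension, so the groups did not overlap and the suspension arrays lay close above the background level of 3.50. The difference was -1.55 ± 0.56 log2 (95% interval -2.82 to -0.28, adjusted p = 0.282). The electroacupuncture arrays, which read 5.67 and 3.41, enter the shared estimate of spread behind this error. With the control and suspension arrays fitted alone, the adjusted p was 0.0248 at the same difference. Leaving out electroacupuncture array 1 or 2 gave nearly this same fit, since a lone treated array adds no spread. These leave-outs are therefore no separate checks.

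Ankrd23 (diabetes-related ankyrin repeat protein), the third of the family, read 11.22 and 11.59 in control and 10.38 and 10.48 in suspension. Again the groups did not overlap. Its difference of -0.98 ± 0.21 log2 had an adjusted p of 0.077, and it passed after a further quantile normalization (0.0439) and after cyclic loess (0.0483). The intervals of Ankrd23 (-1.45 to -0.50) and Ankrd2 overlapped, and whether they differ was not tested.

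Of the LIM-domain genes, Csrp3, an adaptor at the Z-disc whose loss causes heart muscle disease, read 9.53 and 10.20 in control and 8.58 and 7.72 in suspension. It had the lowest difference of the 9 genes, -1.71 ± 0.36 log2 or 3.28-fold, with both suspension arrays below both control arrays. The suspension arrays were 0.85 log2 units apart, a gap exceeded by 1.21% of all genes, and the adjusted p was 0.0728. It became 0.0445 after a further quantile normalization and 0.0454 after cyclic loess. Fhl1, a LIM-only protein mutated in human myopathies, read 11.91 and 12.24 in control against 11.83 and 11.79, a difference of -0.27 ± 0.15 (adjusted p = 0.532). Its groups came within 0.1 of each other without overlapping.

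Of the Xin-repeat genes, Xirp1 (Xin) read 8.72 and 9.68 in control and 8.27 and 8.29 in suspension. The control arrays were 0.96 apart, a gap exceeded by 1.42% of genes, and the size of the difference followed them. It was -0.92 ± 0.27 with all arrays (adjusted p = 0.174), -1.40 without control array 1 (adjusted p = 0.0117) and -0.43 without control array 2 (0.194). Xirp2 (myomaxin) read 10.20 and 9.59 in control and 9.52 and 9.93 in suspension, so the groups overlapped. Its difference was -0.17 ± 0.22 with a 95% interval of -0.66 to 0.33, and it was 0.14 without control array 1 and 0.04 without suspension array 1.

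The scaffold genes had differences of opposite sign. Flnc read 10.52 and 10.66 in control and 9.92 and 9.81 in suspension, with little spread in either group. It fell by 0.73 ± 0.13 log2 (95% interval -1.03 to -0.43), or 1.66-fold, with an adjusted p of 0.0452. That call lay at the edge of the threshold: the adjusted p was 0.0528 with each array centred on its median, 0.0886 with replicate number as a block, 0.0642 without control array 2, 0.184 and 0.280 without suspension arrays 1 and 2, and 0.119 and 0.118 without electroacupuncture arrays 1 and 2. Ttn read 11.80 and 11.51 in control and 11.93 and 12.14 in suspension, a difference of 0.38 ± 0.15 (95% interval 0.03 to 0.72, adjusted p = 0.348). Both suspension arrays lay above both control arrays, as for 21.3% of all genes. Titin was read by 1 cluster, and which of its isoforms the probes cover was not examined.

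**Figure D1:**
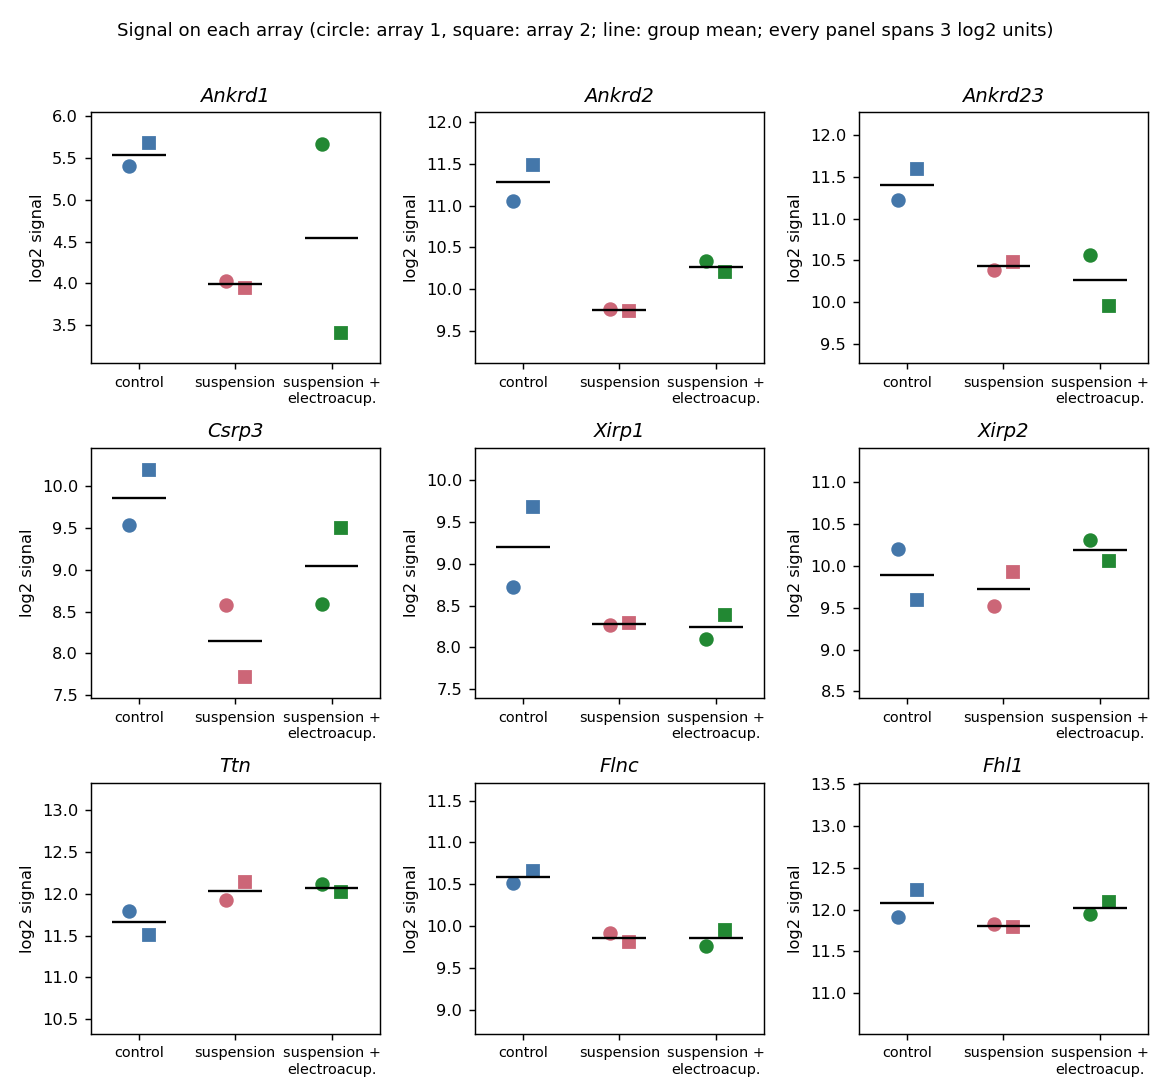
Log2 signal of each of the 9 genes on the 6 arrays, grouped as control, suspension and suspension with electroacupuncture, with circles for array 1, squares for array 2 and a line at the group mean; each panel spans 3 log2 units. Ankrd2 stepped from 11.28 in control to 9.75 in suspension and 10.27 with electroacupuncture, while the electroacupuncture arrays of Ankrd1 read 5.67 and 3.41.

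The bases before the start sites are shown for the 3 genes with the lowest differences, Csrp3, Ankrd1 and Ankrd2, since on all 3 both suspension arrays lay below both control arrays. Each is the 250 bases upstream of the gene's most upstream RefSeq start (build GRCm38.p6), 5′ to 3′ on the gene's strand. Capitals mark E-boxes (CANNTG, bound by myogenic factors such as MyoD) and MCAT elements (CATTCC or GGAATG on the other strand, bound by TEAD factors).
Ankrd1, chr19:36119845-36120094, minus strand: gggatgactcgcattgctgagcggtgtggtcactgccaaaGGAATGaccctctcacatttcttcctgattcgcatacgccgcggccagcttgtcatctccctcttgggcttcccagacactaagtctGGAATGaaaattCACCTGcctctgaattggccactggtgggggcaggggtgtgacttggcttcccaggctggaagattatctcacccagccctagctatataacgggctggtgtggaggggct
Ankrd2, chr19:42035777-42036026, plus strand: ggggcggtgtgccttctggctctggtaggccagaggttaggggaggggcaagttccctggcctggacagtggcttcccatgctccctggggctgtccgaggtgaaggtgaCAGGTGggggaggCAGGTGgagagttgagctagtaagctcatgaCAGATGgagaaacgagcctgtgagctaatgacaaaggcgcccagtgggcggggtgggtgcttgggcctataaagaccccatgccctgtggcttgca
Csrp3, chr7:48848052-48848301, minus strand: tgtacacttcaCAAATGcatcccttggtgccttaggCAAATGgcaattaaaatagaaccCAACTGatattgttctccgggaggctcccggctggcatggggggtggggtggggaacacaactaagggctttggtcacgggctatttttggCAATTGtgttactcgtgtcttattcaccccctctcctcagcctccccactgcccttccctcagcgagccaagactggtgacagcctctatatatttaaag

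Ankrd1 and Ankrd2 lie on the same chromosome. In these windows Ankrd1 held 2 MCAT elements and 1 E-box, Ankrd2 held 3 E-boxes and Csrp3 held 4. Of the 9 genes 8 had a start in the table, and Xirp1 had none. An E-box was found in 6 of those 8 and in 66.1% of the windows of 27025 genes, and an MCAT element in 1 of 8 and in 12.6%. Searched on both strands as well, the CArG box (bound by serum response factor) was found before 1 gene, Fhl1, and in 1.41% of windows, and the MEF2 site before Ttn and Xirp2 and in 3.03%. These are matches of letters, and binding was not measured.

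Electroacupuncture was set against suspension to ask whether treatment shifts these genes in unloaded muscle. No member passed the test, as no gene of the series did (0.0% of 19938), and 2 members, Ankrd2 and Csrp3, had an unadjusted p under 0.05 in limma, beside 3.07% of all genes. The members' median difference was 0.21 log2, against -0.01 over all genes, and 3 of 9 differences were below 0, beside 51.6% of all genes. On 4 members both treated arrays lay above both suspension arrays, namely Ankrd2, Csrp3, Xirp2 and Fhl1, beside 15.4% of all genes. On none did both lie below, beside 17.1% of all genes, and arrays without overlap made up 4 of 9 members and 32.6% of all genes. Sums of 5 of the 11 marker lists did not overlap, beside 32.6% of single genes. On the treated arrays the fibroblast and tendon markers summed to 6020 to 6310 against 4140 to 5060 in suspension, the cardiomyocyte markers to 246 to 259 against 205 to 213, and the Schwann cell and nerve markers (3 of 4 above background, S100b below) to 724 to 863 against 688 to 723. Lower with treatment were the 8 endothelial markers, all above background, at 1290 to 1330 against 1520 to 1700, and the satellite cell markers at 243 to 259 against 283 to 303. The part of these in the differences was not tested.

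Ankrd2 read 10.34 and 10.20 with electroacupuncture against 9.76 and 9.74 in suspension. The treated arrays lay between the suspension and the control arrays, overlapping neither. Its differences of suspension from control and of treatment from suspension share the same suspension arrays, so this place is no separate support. The difference from suspension was 0.52 ± 0.16 log2 (95% interval 0.15 to 0.88, unadjusted p = 0.0107, adjusted p = 1.00). It ran from 0.45 to 0.58 with each array left out in turn.

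Csrp3 read 8.59 and 9.5 with treatment, against 8.58 and 7.72 without it. Treated array 1 thus sat at the level of suspension array 1, and treated array 2 near control array 1 at 9.53. The difference was 0.90 ± 0.36 (95% interval 0.08 to 1.71, unadjusted p = 0.034, adjusted p = 1.00), and it was 0.44 without electroacupuncture array 2 and 1.35 without array 1. It was also 0.47 without suspension array 2 and 1.32 without suspension array 1.

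Ankrd1 gave the widest gap of the 9 genes between duplicate arrays. Its treated arrays read 5.67, which is the control level, and 3.41, which is below both suspension arrays and just under the background level of 3.50. The gap of 2.27 log2 units was exceeded by 2 genes of 19938 in that group, Cish and Slc15a2. The mean difference from suspension, 0.55 ± 0.56, stood for neither array: it was 1.68 without array 2 and -0.58 without array 1, the latter from a signal not above background. Ankrd23 showed a smaller gap of the same sign, with 10.56 on array 1 and 9.95 on array 2 (a gap exceeded by 2.70% of genes), and Csrp3 a gap of the opposite sign, -0.92 (exceeded by 0.497%). Ankrd2, by contrast, was 0.13 apart on the same arrays.

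**Figure D2:**
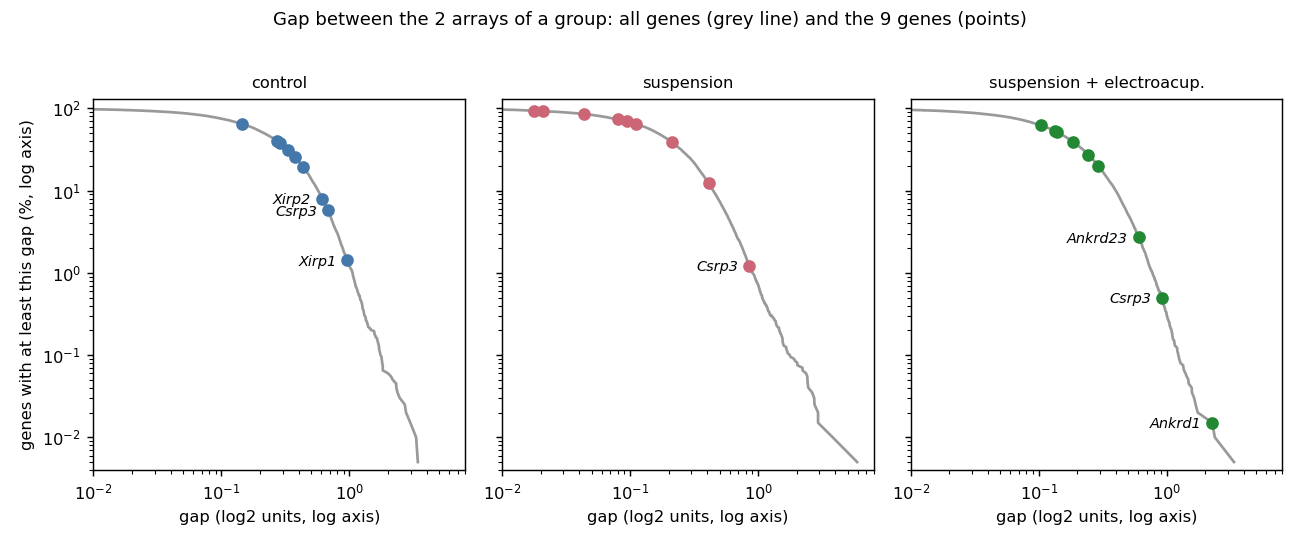
Share of all 19938 genes (vertical log axis, percent) whose 2 arrays of a group differ by at least the gap on the horizontal log axis (log2 units), as a grey line, with the 9 genes as points, in each group. Ankrd1 lies near the far end of the electroacupuncture panel at 2.27, and Csrp3 lies in the tail of every panel, at 0.68, 0.85 and 0.92.

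The other members had differences from suspension between -0.17 and 0.46. Xirp2 read 10.31 and 10.06 with treatment, the highest group mean of the gene, with a difference of 0.46 ± 0.22 (95% interval -0.04 to 0.95). Fhl1 read 11.95 and 12.09, a difference of 0.21 ± 0.15. Those for Ttn (0.04 ± 0.15), Xirp1 (-0.04 ± 0.27), Ankrd23 (-0.17 ± 0.21) and Flnc (-0.01 ± 0.13) lay within their errors, and the sign of each turned on leaving out some array. For Flnc the 95% interval of -0.31 to 0.30 bounds the treatment difference at less than the 0.73 that separated suspension from control. For Ankrd1, with -0.72 to 1.82, it does not.

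The comparison of the electroacupuncture group with control uses the same control arrays as the first comparison, so agreement between both is no separate support. Ankrd23, Ankrd2 and Flnc passed, all 3 lower, beside 1.03% of all genes that passed, 0.587% lower and 0.446% higher. With only the 9969 genes at or above the median signal tested, 264 passed. Both treated arrays lay below both control arrays on 5 of 9 members, beside 20.0% of all genes, and above them on 1, Ttn, beside 21.8%, so that 6 did not overlap, beside 41.8%. An unadjusted p under 0.05 was found for 6 members, beside 12.8% of all genes. Marker sums that did not overlap were those of the 11 macrophage markers, all above background (499 to 686 in control, 885 to 1270 with treatment), the endothelial (1480 to 1760 and 1290 to 1330), the satellite cell (206 to 228 and 243 to 259) and the cardiomyocyte markers (223 to 242 and 246 to 259). Their part in these results was not tested, and 41.8% of single genes did not overlap either. Ankrd23 fell by 1.15 ± 0.21 log2 (2.22-fold, adjusted p = 0.042), Ankrd2 by 1.01 ± 0.16 (2.01-fold, adjusted p = 0.0285) and Flnc by 0.74 ± 0.13 (1.66-fold, adjusted p = 0.0425). All 3 calls were lost without either suspension or either electroacupuncture array, and those of Ankrd23 (0.0852) and Flnc (0.0605) also without control array 2. With each of the 6 arrays left out in turn the differences lay between -1.45 and -0.85 for Ankrd23, -1.23 and -0.79 for Ankrd2, and -0.83 and -0.64 for Flnc. With replicate number as a block, Ankrd2 alone passed (adjusted p = 0.0493), with Ankrd23 at 0.0778 and Flnc at 0.0855.

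The rest did not pass against control. Xirp1 read 8.10 and 8.39 on the treated arrays, a difference of -0.96 ± 0.27 (adjusted p = 0.16), and -1.44 without control array 1 (adjusted p = 0.0119). Csrp3 differed by -0.82 ± 0.36, with its treated arrays below both control arrays. Ankrd1 differed by -1.0 ± 0.56, and by 0.13 without electroacupuncture array 2. Without array 1 the fit gave -2.14 (adjusted p = 0.0371), but from a lone treated array at 3.41, under the background level of 3.50, so this is no measured size. Ttn differed by 0.41 ± 0.15, Xirp2 by 0.29 ± 0.22 and Fhl1 by -0.06 ± 0.15. In order of group means, Ankrd2, Csrp3 and Fhl1 ran control, electroacupuncture, suspension. Ankrd1 has no settled place, since its treated arrays lay at the control level and below suspension. Ankrd23, Xirp1 and Flnc were lowest with electroacupuncture, where they did not differ from suspension beyond their spread (Flnc by -0.01). Ttn and Xirp2 had their highest mean with electroacupuncture. The differences of suspension from control and of electroacupuncture from suspension share the suspension arrays with opposite sign. Genes that read low there therefore tend to place treatment in the middle. The order is a description, and its share over all genes was not computed.

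**Figure D3:**
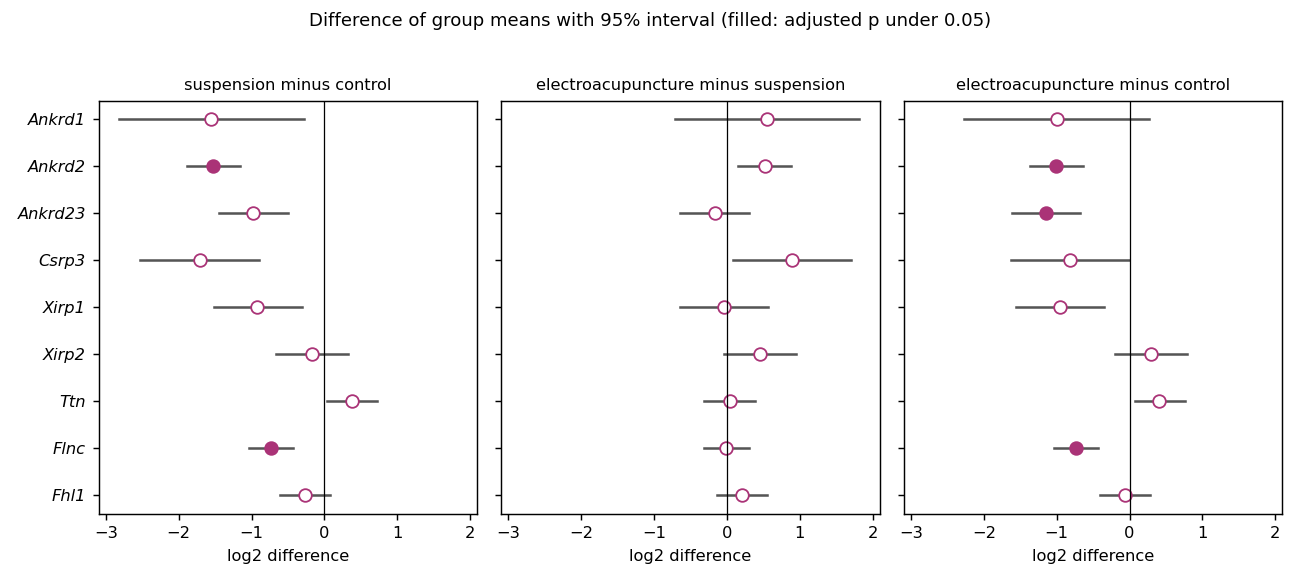
Difference of group means (log2, horizontal axis) with its 95% interval from limma for the 9 genes in the 3 comparisons; filled points have an adjusted p under 0.05. Ankrd2 and Flnc are filled for suspension minus control, none for electroacupuncture minus suspension, and Ankrd2, Ankrd23 and Flnc for electroacupuncture minus control.

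**Figure D4:**
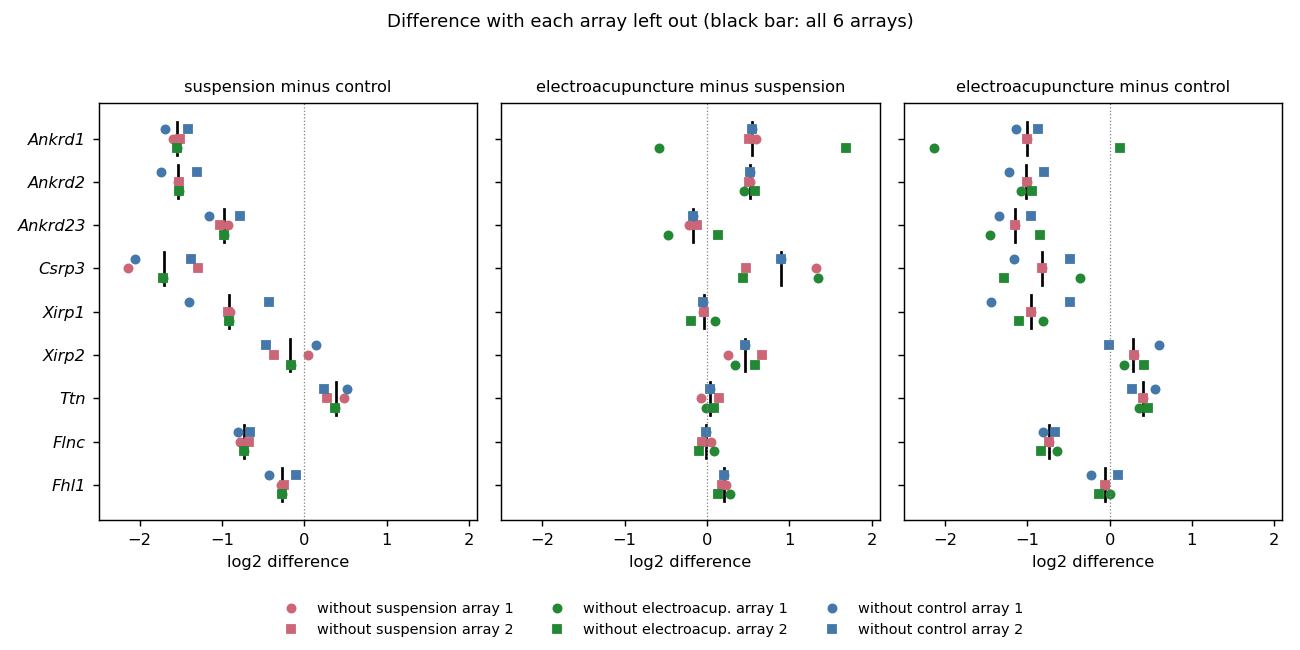
The same differences (log2, horizontal axis) with each of the 6 arrays left out in turn; the black bar is the value from all 6 arrays, and colours and symbols name the array left out. Ankrd1 spans -0.58 to 1.68 for electroacupuncture minus suspension, and Xirp1 spans -1.40 to -0.43 for suspension minus control.

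The control arrays differed from each other in a common direction for these genes. On control array 2, 7 of 9 members read higher than on control array 1, beside 48.1% of all genes. The 2 that read lower there were Ttn and Xirp2, and the 7 were the same genes whose suspension arrays lay below both control arrays, and since both counts use the control arrays this overlap has no test. The members' median difference between suspension and control was -1.16 without control array 1 and -0.66 without control array 2. The skeletal muscle markers summed to 53800 on control array 1 and 64800 on control array 2, and the adipocyte markers (7 of 7 above background) to 5770 and 8000. Their part in this gap was not tested.

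Genes that work with these proteins were taken from 4 lists. Of 21 measured titin and muscle ankyrin repeat protein (MARP) partners, 2 rose in suspension and none fell (median 0.18 log2, 0.537% of all genes higher). Both are M-band proteins that anchor titin's other end: Myom2 (M-protein) went from 9.13 ± 0.19 to 10.40 ± 0.24 (SD, n = 2), a difference of 1.27 ± 0.16 (SE, adjusted p = 0.0122), and Myom1 (myomesin) from 9.70 ± 0.05 to 10.57 ± 0.21 (0.86 ± 0.14, adjusted p = 0.0286). Cmya5, a large costamere protein, differed by 0.89 (adjusted p = 0.057). The Z-disc actinin Actn2, which holds titin's near end, differed by -0.67 (adjusted p = 0.0978). In the electroacupuncture group against control Myom2 was the member that passed (0.98, adjusted p = 0.0286).

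The list of other LIM-domain genes of muscle had 23 measured, among them Nexn, which has no LIM domain. Of the 23, 1 rose and 1 fell in suspension (median -0.13), beside 0.537% and 0.512% of all genes. Pdlim1, which binds actinin, fell by 1.41 ± 0.19 log2 (adjusted p = 0.0172), and its arrays read 10.66 and 10.81 in control against 9.53 and 9.11 in suspension. Fhl3, a paralog of Fhl1, rose by 1.39 ± 0.21 (adjusted p = 0.0234), with 9.70 and 9.94 in control against 11.39 and 11.03. Neither group pair overlapped, and both genes passed in the same direction in the electroacupuncture group against control (-1.39 and 1.21). Pdlim5, another Z-disc adaptor, differed by -0.45 (adjusted p = 0.182).

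Among 21 genes of the filamin family, Xin partners and filamin turnover, 1 rose and 1 fell in suspension (median -0.16), again beside 0.537% and 0.512% of all genes. Hspb7, a small heat shock protein that binds filamin C, fell by 1.02 ± 0.15 (adjusted p = 0.0234), from 11.25 and 11.64 to 10.46 and 10.40. Bag3, the co-chaperone that clears damaged filamin, differed by -0.61 (adjusted p = 0.0667) and Hspa8, the chaperone it works with, by -0.63 (adjusted p = 0.0721). Myoz1, a filamin-binding Z-disc protein of fast fibres, rose by 1.04 ± 0.14 (adjusted p = 0.0163), and it was higher in the electroacupuncture group than in control as well (0.97, adjusted p = 0.0194).

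Of 25 genes of the load-responsive serum response factor, YAP and MEF2 pathway, 1 fell in suspension and none rose (median 0.11), beside 0.512% of all genes lower, and 10 differences were below 0, beside 48.9% of all genes. It was Abra, also named STARS, an actin-binding activator of serum response factor signalling, which read 8.99 and 9.82 in control and 7.40 and 7.89 in suspension (-1.76 ± 0.26, adjusted p = 0.0234) and was low with electroacupuncture too, at 7.64 and 7.90 (-1.64 against control, adjusted p = 0.0288). The YAP partner gene Tead4 differed by 0.71 (adjusted p = 0.0913) and cardiac actin, Actc1, by -0.62 (adjusted p = 0.0966). Actc1 read 8.38 and 8.17 with electroacupuncture against 7.42 and 7.32 in suspension, a difference of 0.90 (adjusted p = 0.367). Ccn1, a secreted YAP target, read 7.9 and 7.92 against 8.73 and 8.61, a difference of -0.76 with the same adjusted p. Ccn2, of the same list, differed by 0.18 ± 0.39 between these groups, so Ccn1 does not speak for the list. In this comparison 14 of the 25 differences were below 0, beside 51.6% of all genes. All 7 calls in these lists for suspension were lost without suspension array 1 and without suspension array 2 and 4 of them, Myom1, Hspb7, Myoz1 and Abra, also without either electroacupuncture array. That of Fhl3 was lost without control array 1 as well. Of the 5 for electroacupuncture against control, all were lost without either electroacupuncture array, those of Fhl3 and Myoz1 also without either suspension array, that of Fhl3 without control array 1 and that of Myom2 without control array 2. With every cluster tested by itself none of these calls held. Without the mean-variance trend Myom1 (adjusted p = 0.0662), Fhl3 (0.0515) and Hspb7 (0.0523) were lost for suspension, and Myom2 (0.0617), Fhl3 (0.07) and Abra (0.0541) for electroacupuncture against control. With the replicate block Myom1 (0.0631) was lost for suspension, and Myom2 and Fhl3 (both 0.0572) for electroacupuncture against control. With the compared groups fitted alone Myom1 (0.0888), Hspb7 (0.0735) and Abra (0.0616) were lost for suspension, and Fhl3 (0.0631) and Myoz1 (0.0551) for electroacupuncture against control, where array weights also ended the call of Fhl3 (0.054).

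**Figure D5:**
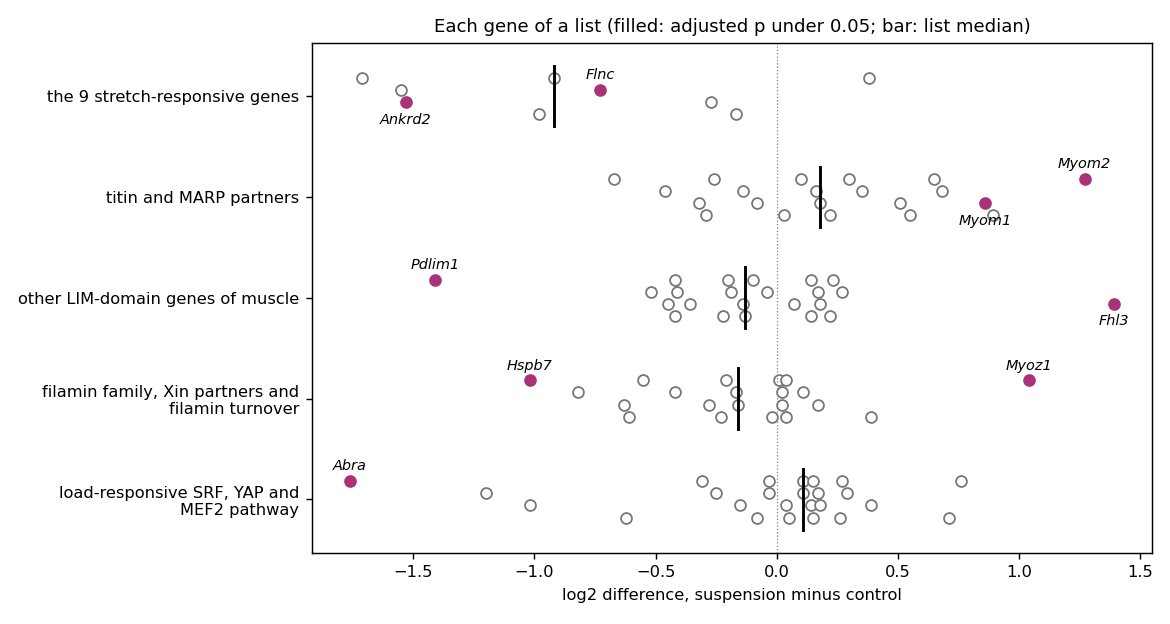
Log2 difference of suspension minus control (horizontal axis) for the 9 stretch-responsive genes and for each gene of the 4 partner lists, with a bar at each median; filled and named points have an adjusted p under 0.05. The medians are -0.92 for the 9 genes and 0.18, -0.13, -0.16 and 0.11 for the lists.

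The genes most like a member were those whose centred values over the 6 arrays lay nearest, by root mean square distance, with a search over genes whose mean signal reached the median. Nearest to Ankrd2 was Reln, a secreted matrix protein gene, at 0.13 log2 units per array, with a mean of 6.34 in control, 4.74 in suspension and 5.23 with electroacupuncture. Rab30 (0.172), 2310057M21Rik (0.196), Yipf7 (0.198) and Nlrc3 (0.211) followed, all closer than the nearest member, Ankrd23 (0.329). Csrp3 had no match as close: Rab15 (0.338), Tspan6 (0.344), Nlrc3 (0.381), Reln (0.385) and Map3k7cl (0.405) came first, ahead of Ankrd2 (0.423). For Ankrd1 they were Nes, the intermediate filament gene nestin, at 0.477, then Ccnd1 (0.529), Nabp1 (0.572), Adamts1 (0.574) and Pdgfd (0.582), with Ankrd23 at 0.575. The 6 arrays share their group structure, so such likeness is a description.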

How the data were processed

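The authors deposited log2 signals of 35556 transcript clusters from Affymetrix Mouse Gene 1.0 ST arrays. Per the submitters' processing notes, signals were computed by RMA in Affymetrix Expression Console; version and genome build are not given in the sources used here. RMA's quantile step forces like distributions on all arrays, so differences are relative to the other genes. Values were used as deposited. Clusters with 1 gene symbol (21789) were kept, and the cluster of highest mean signal per symbol gave 19938 genes. Groups came from the labels. The 6 arrays entered 1 fit of group means in limma (version 3.58.1, under R 4.3.3), moderated with a mean-variance trend (3 residual and 5.88 prior degrees of freedom), 95% intervals and Benjamini-Hochberg adjustment over all genes. The procedure was tested on simulated data. The members, lists and tests were chosen with earlier results of these data known. Beside the 9 members, the text names the genes of each list past the threshold, filled to 3 by p. It also names the 5 genes nearest to Ankrd1, Ankrd2 and Csrp3. Hspa8, Actn2, Ccn1, Ccn2, Cish and Slc15a2 were chosen after their values were seen. Same-numbered arrays did not deviate together (correlations over genes -0.16, 0.02 and -0.02), so replicate numbers were not taken as pairs. Protein sequences were not used here.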

Additional observations from a re-analysis of the deposited data

How the results depend on the processing

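Differences of the members kept their direction under every alternative except those that leave out an array and, for Flnc in electroacupuncture minus suspension, a further quantile normalization (0.02). For suspension minus control 2 members passed, and 1 without the mean-variance trend, with array weights, with median centring or with the replicate block, 0 with every cluster tested by itself, and 4 after a further quantile normalization, after cyclic loess or at a threshold of 0.10; with an array left out it was 0 to 3. Over all genes 209 passed, and 80 without the trend, 130 with array weights, 1 with every cluster by itself, 68 with the compared groups alone, 102 with the replicate block, 482 at 0.10, and 16 to 301 with an array left out. For electroacupuncture minus control 3 members passed, and 0 without the trend, with every cluster by itself or with the compared groups alone, 1 with array weights or the replicate block, and 0 to 4 with an array left out. Over all genes 206 passed, and 101 without the trend, 312 after quantile normalization, 1 with every cluster by itself, 129 with the compared groups alone, 127 with the replicate block, 399 at 0.10, and 2 to 299 with an array left out. For electroacupuncture minus suspension no member passed in any setting, and over all genes 0 passed, with 1 under a robust prior, 4 with array weights, 3 with the compared groups alone, 1 at 0.10 and 0 to 3 with an array left out. The cause of these shifts was not tested. An array left out removes 1 residual degree of freedom. Where it belongs to the group not compared, the lone array left there adds no spread. Such a fit nearly repeats that of the compared groups alone and is no separate check. Every cluster by itself both raises the number of tests and estimates the prior anew from all clusters, and the part of each was not tested. With the suspension numbers crossed in the block, chosen after seeing the data, 266, 0 and 285 genes and 3, 0 and 4 members passed. Leave-outs turned the sign of these members. In suspension minus control Xirp2 ran from -0.47 to 0.14. In electroacupuncture minus suspension Ankrd1 ran from -0.58 to 1.68, Ankrd23 from -0.47 to 0.13, Xirp1 from -0.19 to 0.10, Ttn from -0.07 to 0.14 and Flnc from -0.10 to 0.09. In electroacupuncture minus control Ankrd1 ran from -2.14 to 0.13, Fhl1 from -0.22 to 0.11 and Xirp2 from -0.01 to 0.60. A signal close to background, as for Ankrd1, limits the size of a fall that an array can show.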

Other observations

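The gap of Ankrd1 between the electroacupuncture arrays was among the 8 widest of 19938 genes, which are named here for their values. Array 1 was higher for the peptide transporter gene Slc15a2 (5.27 against 2.90) and the cytokine gene Tnf (4.4 against 2.72), where array 2, as for Ankrd1, was under the background level of 3.50 and the size of the gap is not settled. It was also higher for the muscle fusion gene Mymk (6.65 against 5.01) and Mustn1 (10.90 against 9.33), a gene of musculoskeletal growth. It was lower for Cish (3.87 against 7.21), an inhibitor of cytokine signalling, and for Myl6b (5.19 against 6.93) and the chemokine gene Cx3cl1 (5.01 against 6.58). The macrophage markers summed to 1270 on array 1 and 885 on array 2. Whether these gaps share a source was not tested.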
